A study of Rattus norvegicus with 20 samples.

Results

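The hydroxycarboxylic acid receptor genes Hcar1 and Hcar2 were followed in epididymal tissue of male ZDF rats, 2 genes of the 14557 with a probe set of their own on the array. The genes were selected by name, and each was to be represented by the probe set chosen by its mean signal over the 20 arrays, the brightest. Each gene had 1 probe set paired with it alone, so brightness left nothing to choose. The means over the 20 arrays were 4.97 log2 units for Hcar1 and 4.12 for Hcar2. RNA was measured on Rat Gene 2.1 ST arrays in 4 groups of 5: lean control rats on a standard chow, obese rats on a stock diet for 6 weeks, and rats given rosiglitazone or resveratrol. All groups carry the strain label Zucker, and the rats were kept in individual cages with free access to food. The treated rats are taken here as obese, which their labels do not state, and the sources used here give neither their diet nor the dose or duration of treatment. Age and the allele behind the obesity are not stated either. Lean and obese rats differed in diet as well as in body type, and these cannot be told apart.

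Hcar1 and Hcar2 encode cell surface receptors that couple to inhibitory G proteins. HCAR1 responds to lactate and HCAR2 to the ketone body beta-hydroxybutyrate and to niacin. In fat cells both lower cyclic AMP, which slows the release of fatty acids from stored fat, and HCAR2 is also known from macrophages and neutrophils. In mouse fat cell lines Hcar1 is described as a gene that the nuclear receptor PPAR-gamma activates, and rosiglitazone is a drug that activates that receptor. Resveratrol is a plant polyphenol.

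In the rat assembly GRCr8 the genes are direct neighbours on chromosome 12, with no gene between them in the RefSeq order. The 250 bases before the annotated start of Hcar1 (GRCr8, chr12:38371343-38371592, plus strand, from RefSeq) are shown because Hcar1 is the receptor that moved with the PPAR-gamma drug, and this window was searched for the repeat that PPAR-gamma is known to bind. It reads, 5′ to 3′:
Hcar1: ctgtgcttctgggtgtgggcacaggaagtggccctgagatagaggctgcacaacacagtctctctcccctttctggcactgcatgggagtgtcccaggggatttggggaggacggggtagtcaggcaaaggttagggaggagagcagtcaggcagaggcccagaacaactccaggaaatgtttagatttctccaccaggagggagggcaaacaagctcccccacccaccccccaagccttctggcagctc
The letters AGGTCA, and their direct repeat spaced by any 1 base, which holds AGGTCA within it, were searched on both strands. Neither was found in this window, so no letters are capitalised. Of 33469 rat windows of the same length, 14.1% hold AGGTCA and 0.0508% hold the repeat. The absence says only that these letters are not in this window.

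Tissue identity was checked first. All 13 measured fat cell markers of 18 listed lay above the background level, the 95th percentile of 1281 smell, pheromone and taste receptor genes (3.10 log2 units). Their mean per array ran from 9.25 to 9.82, and Adipoq, the fat cell hormone adiponectin, averaged 10.97 ± 0.06 in obese rats (SD, n = 5). None of 9 measured markers of epididymal epithelium and sperm did so. By these markers the tissue was fat. Lean control replicate 3 stood apart from its group, with a mean of 20 macrophage markers at 5.85 against 4.45 to 4.91 in the other lean arrays. Calls of the receptors that turn on this array are given with and without it.

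Hcar1 was highest in lean rats and lowest with rosiglitazone. Its log2 signals in lean control replicates 1 to 5 were 6.03, 5.35, 5.79, 6.04 and 6.78. In obese replicates 1 to 5 they were 4.66, 5.08, 5.49, 5.01 and 5.01. Only obese replicate 3 reached into the lean range. Resveratrol replicates 1 to 5 gave 4.94, 5.43, 4.52, 4.85 and 4.40, and rosiglitazone replicates 1 to 5 gave 3.84, 4.68, 3.39, 4.08 and 3.98. The resveratrol arrays overlapped the obese range and reached below it, while 4 of the 5 rosiglitazone arrays lay under every obese array. Group means were 6.00 ± 0.52 in lean, 5.05 ± 0.29 in obese, 4.83 ± 0.41 in resveratrol and 3.99 ± 0.46 in rosiglitazone rats (SD, n = 5 each).

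Hcar2 followed the same order of means. Its log2 signals in lean control replicates 1 to 5 were 4.74, 4.53, 4.27, 5.48 and 6.09. Obese replicates 1 to 5 gave 3.59, 3.79, 4.46, 4.18 and 4.07. The lowest lean array, replicate 3, lay within the obese range and the other 4 lay above it. Resveratrol replicates 1 to 5 gave 3.69, 4.30, 3.69, 3.06 and 4.03, and rosiglitazone replicates 1 to 5 gave 3.77, 4.12, 2.96, 3.39 and 4.15. These 2 groups and the obese group overlapped widely. Resveratrol replicate 4 and rosiglitazone replicate 3 fell below the background level. Group means were 5.02 ± 0.75 in lean, 4.02 ± 0.34 in obese, 3.75 ± 0.47 in resveratrol and 3.68 ± 0.51 in rosiglitazone rats (SD, n = 5 each). The means of the last 3 groups were 1.49 to 1.88 times the background level. How far background signal enters the fold differences of Hcar2 was not tested.

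**Figure D1:**
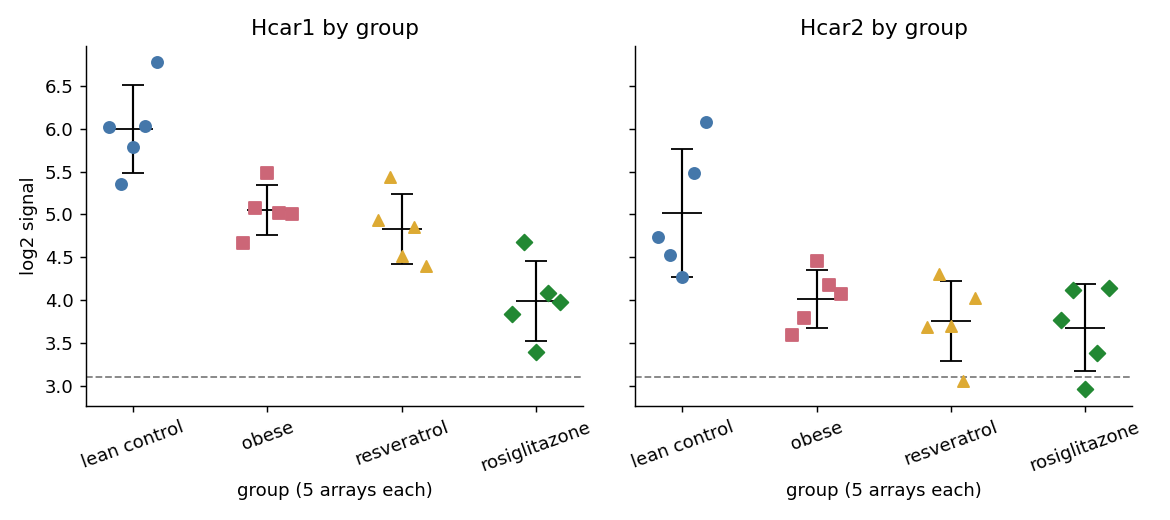
Log2 signal of Hcar1 (left) and Hcar2 (right) on each array, by group; points are arrays in replicate order, the black bar is the mean with SD (n = 5) and the dashed line is the background level of 3.10. Hcar1 steps down from 6.00 in lean to 3.99 in rosiglitazone rats, and Hcar2 drops from 5.02 in lean to between 3.68 and 4.02 in the other groups.

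Differences were tested with limma over all 14557 genes, with Benjamini-Hochberg adjustment over all of them and a threshold of 0.05. These genes were chosen with earlier results of the same arrays known, so their p-values are not independent evidence.

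Obese and lean rats were compared to see how obesity and its diet went with the receptors. Hcar1 differed by -0.95 ± 0.24 (log2 difference ± SE, 95% interval -1.44 to -0.45), 1.93-fold lower in obese rats, and did not pass (adjusted p = 0.0596). Hcar2 differed by -1.0 ± 0.29 (interval -1.60 to -0.41), 2.01-fold lower, and did not pass either (adjusted p = 0.0884). For each gene 4 of 5 obese arrays lay below the whole lean group. Neither member was called, where 0.721% of all genes passed and 0.137% passed as lower. By size of the fall, Hcar2 was number 21 and Hcar1 number 28 of the 14557 genes. Without lean control replicate 3 both passed, Hcar1 at -1.0 (adjusted p = 0.0126) and Hcar2 at -1.19 (adjusted p = 0.00904), as 1856 genes then did. Hcar1 also passed without rosiglitazone replicate 2 (adjusted p = 0.0450), which changes only the shared spread.

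Some macrophage markers moved the other way. Of 20 measured, 4 rose in obese rats by the limma test, where 0.584% of all genes rose. Without lean control replicate 3, 13 of the 20 rose, where 10.2% of all genes did. The summed linear signal of the list ran from 695 to 2646 in lean and from 2061 to 2780 in obese arrays, and 18 of the 20 markers lay above background. All 11 measured neutrophil markers lay below background over the 20 arrays. The fat cell list had a median log2 difference of 0.04, with 1 marker higher and 2 lower. In whole tissue, fewer cells of a type and less RNA per cell cannot be told apart, and the part of either in the receptor differences was not tested.

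Rosiglitazone and obese rats were compared to see what the drug changed. Hcar1 fell by 1.06 ± 0.24 on the log2 scale (interval -1.55 to -0.56), 2.08-fold (adjusted p = 0.00457). It was number 104 of the 14557 genes by size of the fall, in a comparison where 9% of genes passed, 2.68% as lower. All 5 rosiglitazone arrays lay below the obese median, with overlap through replicate 2 alone. The call held in 31 of 31 alternative settings, with adjusted p from 0.000337 to 0.0201. Hcar2 differed by -0.34 ± 0.29 (interval -0.94 to 0.26) and did not pass (adjusted p = 0.570). Its interval does not exclude a fall of up to 1.91-fold. On the same arrays 7 of 10 endothelial and 6 of 11 fibroblast and preadipocyte markers fell, with list medians of -0.92 and -0.77. The fat cell list had a median of -0.02, with 2 of 13 markers higher and none lower. The part of these cell types in the Hcar1 difference was not tested.

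Hcar1 fell further than Hcar2 between obese and rosiglitazone rats on the array scale, with Hcar2 closer to background. On each array the Hcar2 value minus the Hcar1 value was taken, and its group means were compared, since a level of one probe set cannot be set against that of another. The difference of Hcar1 (-1.06) was larger in size than that of Hcar2 (-0.34), by 0.72 log2 units (SD over arrays 0.17 in obese and 0.36 in rosiglitazone rats, n = 5 each), and by 0.60 to 0.81 when any 1 array was left out. In the exact two-sided permutation test p was 0.00794, the smallest that 5 arrays against 5 allow, and 0.0476 adjusted over the 6 comparisons. With 4 arrays against 5 the exact test can reach no less than 0.0159, so leaving out an obese or rosiglitazone array cannot test the call. Hcar2 averaged 1.88 times the background level in obese and 1.49 times in rosiglitazone rats, and Hcar1 3.85 and 1.85 times. Hcar2 thus started closer to the background level than Hcar1, and the part of this in the 0.72 was not tested. The same quantity, the Hcar2 difference minus the Hcar1 difference, was 0.76 for rosiglitazone against resveratrol (exact permutation p = 0.0397, adjusted 0.0794) and 0.66 for rosiglitazone against lean control (exact permutation p = 0.0317, adjusted 0.0794). For obese against lean control it was -0.06 (exact permutation p = 0.746, adjusted 0.865).

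**Figure D2:**
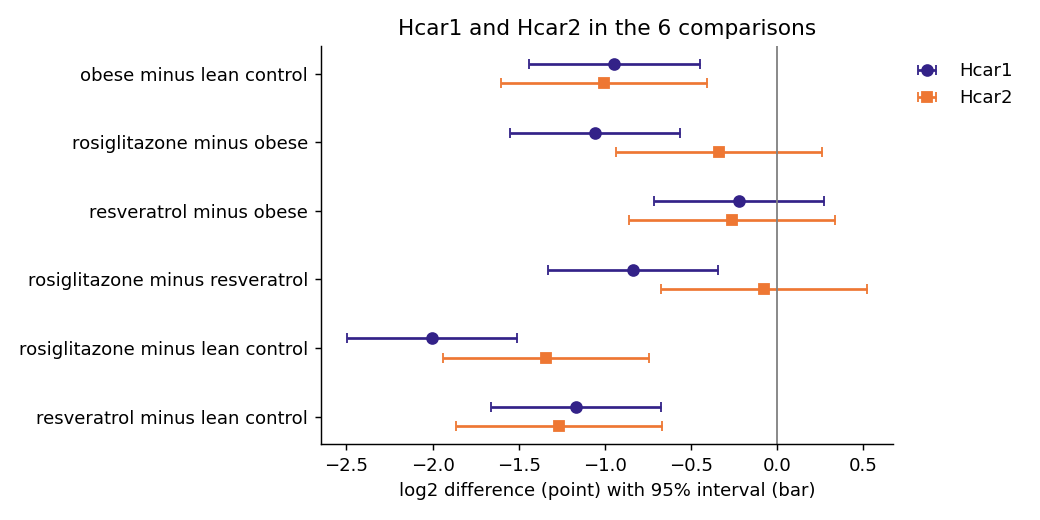
Log2 differences of Hcar1 (circles) and Hcar2 (squares) in the 6 comparisons, each named first group minus second, with 95% intervals of the limma model over 20 arrays. Both receptors lie near -1 for obese against lean, while rosiglitazone against obese moved Hcar1 (-1.06) and left the Hcar2 interval across 0.

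Resveratrol and obese rats were compared to see what this compound changed, and no gene of the array passed in limma (0% called, 410 genes with an unadjusted p under 0.05). Hcar1 differed by -0.22 ± 0.24 (interval -0.72 to 0.27) and Hcar2 by -0.26 ± 0.29 (interval -0.86 to 0.34), each with adjusted p = 0.999. A fall of up to 1.64-fold in Hcar1 and 1.81-fold in Hcar2 lies within these intervals. The count of genes called was 0 in all 30 alternatives run for it.

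Set against each other, the treatments differed in Hcar1. It was 1.79-fold lower with rosiglitazone than with resveratrol (log2 difference -0.84 ± 0.24, adjusted p = 0.0298), where 7.56% of genes passed, 1.92% as lower. This call was lost without rosiglitazone replicate 1, 3 or 4 or without resveratrol replicate 1, 2 or 4, with adjusted p up to 0.103, and the difference stayed between -1.01 and -0.68 in each case. On these arrays 6 of 10 endothelial markers (median -0.83) and 5 of 11 fibroblast and preadipocyte markers (median -0.65) were lower too, and their part was not tested. Hcar2 differed by -0.08 ± 0.29 (interval -0.68 to 0.52, adjusted p = 0.929), and its sign turned without rosiglitazone replicate 3 (0.10) or resveratrol replicate 2 (0.06).

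Against lean rats both treated groups had lower receptor signals. With rosiglitazone Hcar1 fell by 2.0 ± 0.24, 4.01-fold (adjusted p = 1.45e-06), and the groups did not overlap. It was number 7 of the 14557 genes by size of the fall. Hcar2 fell by 1.34 ± 0.29, 2.54-fold (adjusted p = 0.00134), again without overlap, and was number 34. Of all genes, 25% passed in this comparison, 6.55% as lower, and 2.69% were lower without overlap. With resveratrol Hcar1 fell by 1.17 ± 0.24, 2.24-fold (adjusted p = 0.0119), and Hcar2 by 1.27 ± 0.29, 2.40-fold (adjusted p = 0.0216), where 2.63% of genes passed, 0.543% as lower. The Hcar2 call ended without lean control replicate 4 (-1.15, adjusted p = 0.0785), lean control replicate 5 (-1.0, adjusted p = 0.0615) or resveratrol replicate 4 (-1.09, adjusted p = 0.0583). These comparisons share the lean arrays with each other and with the obese comparison, so they are not separate evidence. With rosiglitazone 7 of 20 macrophage markers were higher than in lean rats, where 18.4% of all genes were higher. In the same comparison 7 of 10 endothelial and 4 of 11 fibroblast and preadipocyte markers were lower, the direction of the receptors. With resveratrol 9 of 20 macrophage markers were higher, where 2.09% of all genes were. The part of these markers in the receptor differences was not tested.

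In the order lean, obese, resveratrol, rosiglitazone, taken from these same means, the step from resveratrol to rosiglitazone passed for Hcar1 in limma (-0.84, adjusted p = 0.0298). The larger step from lean to obese did not (-0.95, adjusted p = 0.0596), nor did that from obese to resveratrol (-0.22, adjusted p = 0.999). Before adjustment, limma p was 0.00185 for the first and 0.000585 for lean to obese, so the adjustment within each comparison separates these calls. For Hcar2 no step passed.

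Across the 20 arrays the receptors varied together. Pearson's r was 0.820 (permutation p = 3e-05) and Spearman's rho 0.805 (permutation p = 3e-05). The permutations here and below shuffled arrays regardless of group, so these p-values also reflect group differences that both genes share. Without the 2 arrays farthest from the Hcar1 median, lean control replicate 5 and rosiglitazone replicate 3, r was 0.679 (permutation p = 0.00172, n = 18). After each group's mean was removed r was 0.696 and rho 0.576 over the 20 arrays, as a description. Without the lean arrays r was 0.560 (permutation p = 0.0300, n = 15). Lean control replicate 5 was highest and rosiglitazone replicate 3 lowest for both genes. The genes are close paralogs in sequence, and how far their probe sets share signal was not tested.

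**Figure D3:**
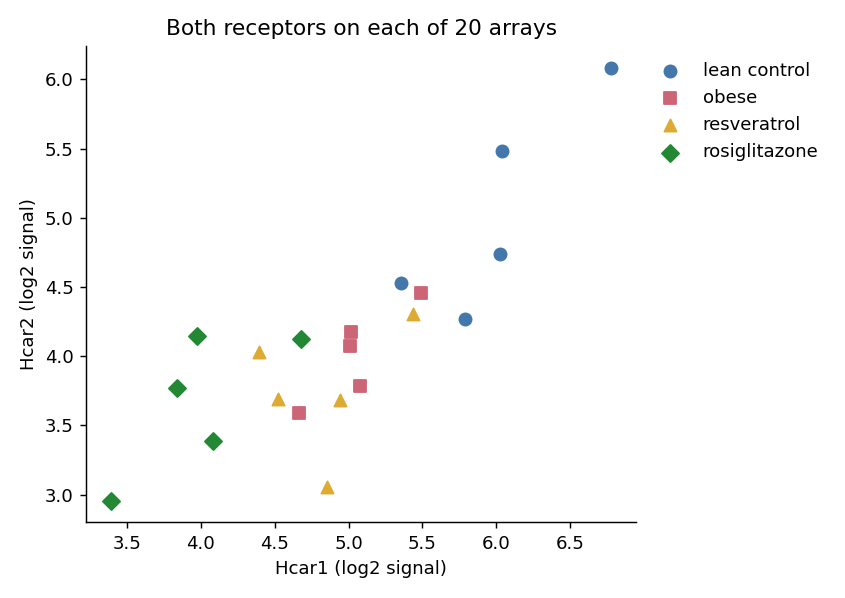
Hcar2 against Hcar1 log2 signal on each of the 20 arrays, with colour and symbol by group. The lean arrays spread from 5.35 to 6.78 on the Hcar1 axis and up to 6.09 on the Hcar2 axis, and 4 of 5 rosiglitazone arrays lie to the left of all obese arrays, with 2 of 5 also below every obese Hcar2 value.

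Of 6 measured neighbours on the chromosome 1 passed with rosiglitazone, where 9% of all genes did. Denr, a translation factor gene beside Hcar1, rose 0.46 log2 units with rosiglitazone against obese rats (adjusted p = 0.0359). Its arrays ran from 5.66 to 5.92 with the drug and from 5.20 to 5.39 in obese rats, and the call was lost in 8 of 20 fits that left out 1 array. Hip1r (-0.37, adjusted p = 0.223), Ccdc62 (0.20), Rsrc2 (-0.20), Zcchc8 (-0.23) and LOC100359550 (-0.10, near background) did not pass. None of these 6 neighbours passed for obese against lean rats, with log2 differences from -0.35 to 0.29.

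Genes most like the receptors were ranked by Pearson's r over the 20 arrays among 7013 others above background, as a description of arrays that share group and signal range. For Hcar1 they were Akr1c19 (an aldo-keto reductase, r = 0.882), Gstt3 (a glutathione transferase, 0.867), Acvr1c (0.839), the tetraspanin gene Tspan7 (0.836) and Bcar3 (0.830), with Hcar2 at rank 6. For Hcar2 they were Acvr1c (0.822), Hcar1 (0.820), the anion exchanger gene Slc26a3 (0.803), the Wnt-binding protein gene Frzb (0.799) and the cytokine signalling inhibitor gene Cish (0.789). Acvr1c, which encodes the activin receptor ALK7 of fat cells, stood on both lists. It averaged 7.49 ± 0.55 in lean, 6.30 ± 0.17 in obese, 5.88 ± 0.30 in resveratrol and 5.82 ± 0.48 in rosiglitazone rats (SD, n = 5 each), and fell by 1.19 log2 units in obese against lean rats (adjusted p = 0.0171). Without lean control replicate 3 that difference was -1.43 (adjusted p = 5.93e-05), and the call was lost in 6 of 20 fits that left out 1 array. Its drop with rosiglitazone against obese rats did not pass (-0.48, adjusted p = 0.225). Bcar3 (-1.21, adjusted p = 0.000455), Tspan7 (-0.84, adjusted p = 0.00282) and Akr1c19 (-0.55, adjusted p = 0.0337) fell with rosiglitazone. Without the lean arrays r with Hcar2 was 0.280 for Frzb and 0.152 for Cish, against 0.716 for Slc26a3.

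**Figure D4:**
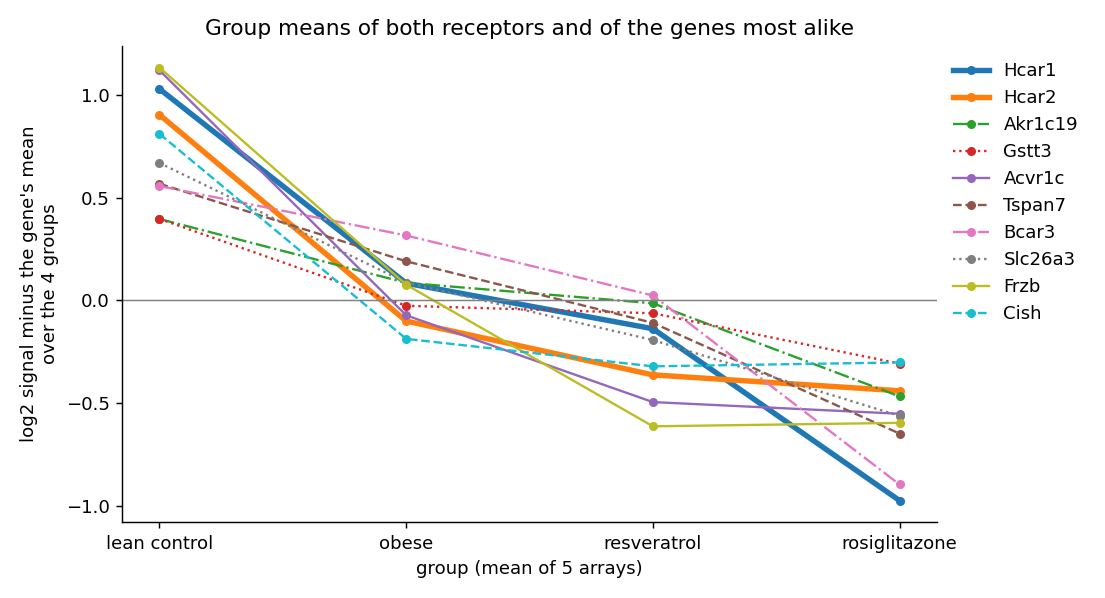
Group means of log2 signal for Hcar1 and Hcar2 (thick lines) and the 8 other genes most alike, each minus its own mean over the 4 groups; lines join the points of a gene and mark no order in time. Each gene is highest in lean rats, and Hcar1 and Bcar3 drop most between resveratrol and rosiglitazone.

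The other genes of the pathway were described from 12 lists with 169 different entries, 129 of them measured, and a gene can stand on more than 1 list. Among 13 metabolite receptors, Hcar1 alone changed with rosiglitazone, where 2.68% of all genes fell and 6.32% rose. None of the 13 passed for obese against lean rats in limma. Without lean control replicate 3 the latter count was 3: Hcar1 and Hcar2 lower and the succinate receptor gene Sucnr1 higher (0.79, adjusted p = 0.0315). In that fit 10.2% of all genes were higher and 2.597% lower. Only 3 of the 13, Hcar1, Hcar2 and Sucnr1, averaged above background. Sucnr1 differed by 0.44 for obese against lean (adjusted p = 0.431) and by 0.17 with rosiglitazone (adjusted p = 0.823).

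Of 8 measured receptors of the inhibitory class 2 fell with rosiglitazone, with a list median of -0.31 against 0.04 over all genes, where 2.68% of genes fell. Npy1r, a receptor for neuropeptide Y, fell by 1.67 (adjusted p = 1.41e-05). Its mean was above background in obese rats alone (3.52), so the size of this fall is approximate. S1pr1, a sphingosine phosphate receptor prominent in vessel lining, fell by 0.81 (adjusted p = 0.00383). Endothelial markers fell in the same comparison in 7 of 10, with 1 higher and all 10 above background, and their summed linear signal ran from 421 to 474 with the drug and from 760 to 1052 in obese arrays. Their part in these changes was not tested. Adora1, the adenosine receptor that restrains lipolysis, did not pass (0.08, adjusted p = 0.911). None of the 8 passed for obese against lean in limma, and 4 rose without lean control replicate 3, where 10.2% of all genes did.

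Of 11 measured receptors that raise cyclic AMP 2 rose with rosiglitazone, where 6.32% of all genes rose and 2.68% fell. Of the 11, 4 averaged above background. Pth1r, the parathyroid hormone receptor, rose 0.84 (adjusted p = 0.0120) and Mc2r, the corticotropin receptor that stimulates lipolysis in rodent fat cells, rose 0.78 (adjusted p = 0.0212). Among 12 measured G protein subunits Gnai1 rose 0.84 (adjusted p = 0.0119) and no other passed. It encodes an inhibitory alpha subunit, the class through which HCAR1 and HCAR2 act. Gnai2, another of that class, differed by -0.22 (adjusted p = 0.493). Of 14 regulators, Rgs2 rose 1.14 (adjusted p = 0.00775), and Rgs4 fell by 0.65 (adjusted p = 0.0494) and the receptor kinase gene Grk3, near background, by 0.59 (adjusted p = 0.0283). Grk5, a kinase that desensitises receptors, was the regulator that passed for obese against lean rats, 0.94 higher (adjusted p = 0.0471). The calls of Rgs4 and Grk5 were lost in 13 and 17 of 20 fits that left out 1 array.

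Downstream, 2 of 8 adenylyl cyclases, the enzymes that make cyclic AMP, fell with rosiglitazone: Adcy3 by 0.99 (adjusted p = 0.00210) and Adcy1, near background, by 0.62 (adjusted p = 0.00604). Of all genes 2.68% fell and 6.32% rose in this comparison. Of 10 phosphodiesterases, which break it down, Pde2a fell by 1.16 (adjusted p = 0.000122) and Pde7b rose 0.58 (adjusted p = 0.0369). Pde3b, the insulin-regulated enzyme of fat cells, did not pass (0.32, adjusted p = 0.320). Prkar2a, a regulatory subunit of protein kinase A, rose 0.67 (adjusted p = 0.0130), the 1 of 9 in its list. Of 10 lipolysis genes Cidea (1.73, adjusted p = 0.00156), a lipid droplet protein, and Abhd5 (1.04, adjusted p = 2.71e-05), the coactivator of fat cell triglyceride lipase, rose. The lipase gene Pnpla2 differed by 0.34 (adjusted p = 0.145). Plin2, a lipid droplet coat protein, rose in obese against lean rats by 1.73 (adjusted p = 0.0164).

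**Figure D5:**
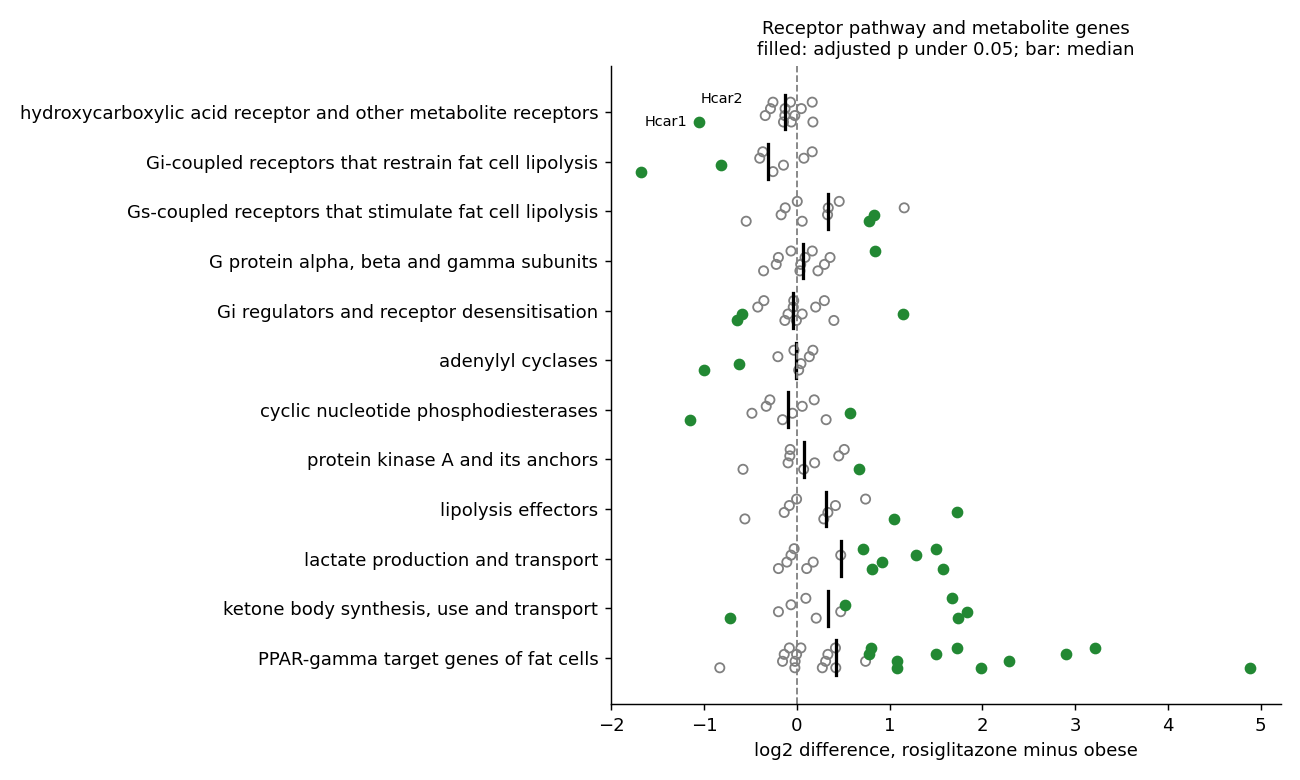
Log2 difference, rosiglitazone minus obese, of each measured gene in the 12 lists; filled points passed at an adjusted p of 0.05, open points did not, and the black bar is the list's median. Hcar1 (-1.06) lies apart from the other metabolite receptors, and Fabp3 of the PPAR-gamma list (4.89) lies furthest to the right.

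Some genes that make or use the ligands rose with rosiglitazone. Of 13 measured lactate genes 6 rose and none fell, with a median of 0.47 against 0.04 over all genes, where 6.32% of genes rose. Ldhb, a lactate dehydrogenase subunit, averaged 8.07 ± 0.28 with the drug and 6.79 ± 0.29 without (SD, n = 5 each), a rise of 1.29 (adjusted p = 8.42e-05). Pdk1 (1.58, adjusted p = 2.08e-05) and Pdk4 (1.5, adjusted p = 0.00880), kinases that hold back pyruvate oxidation, rose too. The lactate carriers Slc16a1 (0.47, adjusted p = 0.232) and Slc16a3 (-0.03, adjusted p = 0.956) did not pass. Slc16a3, which exports lactate, was the 1 lactate gene that passed in obese rats, where it was lower than in lean rats by 0.79 (adjusted p = 0.0346), with an obese mean of 3.08 that is below background. For obese against lean rats 0.137% of all genes passed as lower and 0.584% as higher. Without lean control replicate 3 the lactate list had 2 higher and 2 lower, where 10.2% of all genes were higher and 2.597% lower.

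Of 10 measured ketone body genes 4 rose and 1 fell with rosiglitazone, with a median of 0.34, where 6.32% of all genes rose and 2.68% fell. Bdh1, which interconverts the ketone bodies, rose from 2.65 ± 0.48, below background, to 4.49 ± 0.18 (SD, n = 5 each; 1.84, adjusted p = 2.29e-06). Acat1 rose 1.74 (adjusted p = 1.16e-06) and Aacs, which spends acetoacetate on lipid synthesis, rose 1.68 (adjusted p = 0.00175). Hmgcll1, named because it was the 1 that fell and so chosen after its value was seen, fell by 0.72 (adjusted p = 0.0215). Oxct1, the enzyme that commits ketone bodies to oxidation, did not pass (0.10, adjusted p = 0.829). None of the 10 passed for obese against lean rats in limma, and 3 rose without lean control replicate 3, where 10.2% of all genes did.

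PPAR-gamma targets of fat cells rose in 11 of 25 with rosiglitazone and none passed as lower, with a median of 0.42. Of all genes 6.32% rose and 2.68% fell. Fabp3 (4.89, adjusted p = 1.29e-11), Me1 (3.22, adjusted p = 1.09e-06) and Cpt1b (2.90, adjusted p = 3.34e-09), genes of fatty acid binding, reducing power and fatty acid entry into mitochondria, were the 3 with the largest rise. Ucp1 and Fgf21, also among those that rose, averaged below background over the 20 arrays (1.65 and 2.79). The other members did not pass, among them Fabp4 (-0.08), Lpl (-0.02), Adipoq (-0.02) and Pck1, the lowest (-0.83, adjusted p = 0.0719). Hcar1 fell on the same arrays. For obese against lean rats Olr1 (2.16) and Plin2 (1.73) rose and Cfd, the adipokine adipsin, fell by 1.11, each with adjusted p = 0.0164. Of all genes 0.584% rose and 0.137% fell in that comparison. Without lean control replicate 3 the counts were 8 higher and 1 lower, where 10.2% of all genes were higher and 2.597% lower. For resveratrol against obese rats no member of any of the 12 lists passed in limma.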

How the data were processed

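Total RNA (100 ng per sample) from 20 rats was hybridized to Rat Gene 2.1 ST arrays, 5 in each of 4 groups. The deposited table holds log2 signal for 36685 features, made by the authors with RMA, per the submitters' processing notes, and no version is given there. Values ran from -0.17 to 12.5 and array medians from 2.50 to 2.74. RMA summarises the probes of a set into 1 value and compresses differences near background. No further normalization or filter was applied. Features were named by the platform annotation: 14824 named 1 gene, 829 several and 21032 none, which gave 14557 genes. The number of arrays limits the precision, with a median standard error of 0.17 per log2 difference.

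A limma 3.58.1 model (R 4.3.3) with 1 mean per group was fitted to all genes. Exact permutation tests and correlations (100000 permutations) used scipy 1.17.1. The model was tested on simulated data. Titles call the arrays biological replicates, and p-values measure the spread between them. Members, lists and alternatives were chosen with earlier results of these data known. Named were both receptors, up to 3 called genes per list with the largest difference in 2 comparisons, a fixed set of genes always named where measured (Lipe and Ldha were not analysed here), 3 measured neighbours on each side and the 5 most alike genes of each receptor. Lists were matched by array symbol or gene ID. Alternatives were quantile normalization, median subtraction, array signal SD as a covariate, a background filter, other variance models, array weights, the replicate block, all features, the mean of probe sets and leaving out each array.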

Additional observations from a re-analysis of the deposited data

Results flagged for a closer look

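No array of Hcar1 or Hcar2 stood apart from its group. Over 53 named genes and 4 groups of 5 arrays, 16 of 212 groups held an array whose gap to the nearest other exceeded 0.71 of the group's range, Dixon's 95% value, where chance flags about 1 in 20. Lean control replicate 3 accounted for 4 of them: Acvr1c at 6.53 against 7.62 to 7.83 in the other lean arrays, Slc16a3 at 3.45 against 3.89 to 4.06, Cpt1b at 5.20 against 3.83 to 4.15, and Olr1 at 4.20 against 2.14 to 2.40. Obese replicate 1 was low for Ldhb (6.28), Rgs4 (4.99) and Zcchc8 (4.87), and obese replicate 4 was high for Adipoq (11.1). Rosiglitazone replicate 3 was low for Fabp3 (7.88) and high for LOC100359550 (2.96), and rosiglitazone replicate 5 was low for Rgs2 (5.61). Among resveratrol arrays, replicate 1 was high for Aacs (5.38), replicate 2 for Slc16a1 (6.78) and Gstt3 (4.01), replicate 3 was low for Adcy1 (2.28) and replicate 5 for Akr1c19 (4.17).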

How the results depend on the processing

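The rosiglitazone difference of Hcar1 from obese rats, and those of both receptors from lean rats, kept direction and call in all 31 alternatives each. For obese against lean rats Hcar1 passed with quantile normalization (-1.13, adjusted p = 0.0288), with genes above background only (-0.95, adjusted p = 0.0350) and with array weights (-0.94, adjusted p = 0.0173), and Hcar2 with array weights (-1.0, adjusted p = 0.0298). In limma Hcar1 did not pass in 26 of 31 alternatives, with adjusted p up to 0.291. Hcar2 did not pass in 29 of 31, with adjusted p up to 0.480. Leaving out 1 array gave -1.11 to -0.75 for Hcar1 (adjusted p up to 0.140) and -1.19 to -0.74 for Hcar2 (up to 0.222). Hcar1 in rosiglitazone against resveratrol lost its call with median subtraction (-0.77, adjusted p = 0.0581) and over all features (-0.84, adjusted p = 0.0837), and ran from -1.01 to -0.68 without 1 array; Hcar2 ran from -0.25 to 0.10. For resveratrol against lean rats calls were lost with the array SD covariate (Hcar1 -1.28, adjusted p = 0.0629; Hcar2 -1.20, adjusted p = 0.163), over all features (Hcar1 -1.17, adjusted p = 0.0528; Hcar2 -1.27, adjusted p = 0.0757) and for Hcar2 with only the 2 groups fitted (-1.27, adjusted p = 0.0760); Hcar2 ran from -1.45 to -1.0 without 1 array. With the covariate and without lean control replicate 3, an alternative chosen after seeing the data, obese against lean gave -1.46 (adjusted p = 0.0943) for Hcar1 and -1.5 (adjusted p = 0.162) for Hcar2. Apart from the larger number of tests over all features, the cause of these shifts was not tested.

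The number of genes called for obese against lean rats, 105, became 0 with the covariate, 179 above background, 31 with the 2 groups alone, 51 with a variance trend, 1102 with array weights and 13 over all features, and 4 to 1856 without 1 array. For resveratrol against lean rats, 383 became 11, 74, 970 and 98 with the covariate, the 2 groups alone, array weights and all features, and 102 to 2073 without 1 array. For rosiglitazone against lean rats 3632 became 1116 with the covariate and 5691 over all features. Same-numbered arrays of different groups deviated together in 6 of 30 pairs at r over 0.1 (median r 0.00). Lean and obese replicates 1 to 5 gave r of 0.071, 0.056, 0.403, 0.143 and 0.108, and the remaining pairs ran from -0.281 to 0.169. The main model did not pair arrays by number, and whether the numbers mark a shared batch was not tested. With the replicate block 166 genes passed for obese against lean rats, and no call of either receptor changed.

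The difference between the receptors in their response to rosiglitazone ran from 0.60 to 0.81 without 1 array. With 4 arrays against 5 the exact test can reach no less than 0.0159 before adjustment, and the adjusted value was up to 0.0952. For rosiglitazone against lean control it was 0.72 with quantile normalization (adjusted p = 0.0476) and 0.52 to 0.77 without 1 array, and for rosiglitazone against resveratrol 0.58 to 0.94. It ran from -0.19 to 0.047 for obese against lean, -0.22 to 0.14 for resveratrol against obese and -0.28 to 0.081 for resveratrol against lean. The correlation of the receptors ran from 0.746 to 0.860 without 1 array. Among other named genes the calls lost in some of the 20 fits without 1 array were, for obese against lean rats, those of Slc16a3 (8), Plin2 (6), Olr1 (6) and Cfd (5), and for rosiglitazone against obese rats those of Mc2r (3), Grk3 (5), Pde7b (6) and Akr1c19 (7). The counts of list and cell type markers without lean control replicate 3 were chosen after seeing the data.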
